A study of Rattus norvegicus with 6 samples.

Results

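The 7 genes of the EGF family of ligands that bind the EGF receptor (Hbegf, Tgfa, Btc, Areg, Ereg, Epgn and Egf) were examined in cultured precursor cells of newborn rats. Each was taken by its gene symbol from the array's annotation. All 7 had exactly 1 probe set with that single symbol, out of 18166 genes measured this way, so no choice between probe sets was needed. The probe sets were 17725668 for Hbegf, 17785134 for Tgfa, 17688828 for Btc, 17693425 for Areg, 17693433 for Ereg, 17693441 for Epgn and 17751329 for Egf. The arrays compared 3 isolates of SKPs, the skin-derived precursors of the back skin, with 3 isolates of NSCPs, the Schwann cell precursors of the sciatic nerve. All came from newborn wild-type Sprague-Dawley rats, each isolate was measured on 1 array, and no group carried a transgene or deletion. SKPs grew as free spheres in medium with 20 ng/ml EGF and 40 ng/ml FGF2. NSCPs grew on a laminin and poly-D-lysine coat. Their medium held neuregulin-1β at 25 ng/ml, forskolin, which raises cAMP, at 5 μM, and N2 supplement at 2%. The protocol in the labels runs the descriptions of the media together, and which of them held the 2% B27 supplement it also lists is not certain. Tissue, growth form and medium thus differ together between the groups and cannot be told apart. The protein EGF was added to the SKP medium only, while the arrays read the transcripts of the cells. The series title concerns paracrine factors of nerve-derived precursors in digit tip regeneration. These genes encode growth factors that cells can release, but neither release nor regeneration was measured on these arrays.

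EGF family ligands are made as precursors that span the cell membrane, and proteases of the ADAM family cut them to release the growth factor. All members bind the EGF receptor, and Hbegf, Btc, Ereg and some others can also act through Erbb4. The neuregulins form the neighbouring family and act through Erbb3 and Erbb4, with Erbb2 as the shared partner. In peripheral nerve the best known ErbB signal is neuregulin acting on Erbb2 and Erbb3 of Schwann cells. In skin, EGF receptor ligands are best known from keratinocytes.

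Of the 7 members 3 were higher in NSCPs and 0 were lower (0 also at an unadjusted p under 0.05 in limma). Hbegf was higher by 26.99-fold, Tgfa by 7.09-fold and Btc by 4.89-fold, each with 3 cultures a group. Areg, Ereg, Epgn and Egf did not pass the test, with differences of 0.03 to 0.14 on the log2 scale. The test was limma's moderated test over all genes, and a gene was called at a Benjamini-Hochberg adjusted p under 0.05. All values are log2 expression, and all differences are NSCPs minus SKPs. The median difference over the 7 members was 0.14, as was the median over all genes. By number, 3 of 7 (42.9%) is near the share of all genes called, which was 43.7%. Counted in the upward direction, the background was 25.2% of all genes. At least 2-fold higher levels with a call were found for 7.45% of all genes, and the same 3 members met that rule.

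Hbegf encodes heparin-binding EGF-like growth factor, which binds heparan sulfate on cell surfaces. It stood at 10.93, 11.20 and 11.14 in NSCP replicates 1 to 3 and at 6.27, 6.51 and 6.22 in SKP replicates 1 to 3. The groups were far apart, and the arrays within a group differed by less than 0.3. The means were 11.09 ± 0.14 and 6.33 ± 0.15 (SD, n = 3 per group), a difference of 4.75 (SE 0.14, 95% interval 4.45 to 5.06, limma adjusted p = 6.21e-08). Ranked by difference, Hbegf was number 26 of 18166 genes from the top.

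Tgfa encodes transforming growth factor alpha, a close relative of EGF. Its NSCP values were 8.11, 8.42 and 8.38, and its SKP values were 5.68, 5.48 and 5.27. The SKP arrays lay at the edge of the background level of 5.32, which is the 95th percentile of the mean level of 226 olfactory and vomeronasal receptor genes, and SKP replicate 3 lay under it. A group mean not above that level is called within background here. Tgfa means were 8.30 ± 0.17 and 5.48 ± 0.20 (SD, n = 3 per group), a difference of 2.83 (SE 0.15, 95% interval 2.48 to 3.17, limma adjusted p = 1.43e-06). The 7.09-fold difference thus rests on an SKP level close to background. By difference Tgfa was number 178 of all genes.

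Btc encodes betacellulin. It was read at 10.01, 9.60 and 9.83 in NSCPs and at 7.70, 7.49 and 7.38 in SKPs. Unlike the SKP values of Tgfa, every SKP value of Btc was clear of background. Means were 9.82 ± 0.20 and 7.53 ± 0.16 (SD, n = 3 per group), and the difference was 2.29 (SE 0.15, 95% interval 1.95 to 2.63, limma adjusted p = 4.89e-06), number 310 from the top. The interval of Hbegf lay above those of Tgfa and Btc, which overlapped each other. Probe sets differ in how far their signal can move, so the order of the folds need not be the order of transcript changes. The groups did not overlap for any of these 3 members, as for 56.6% of all genes.

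Areg encodes amphiregulin, a ligand of epithelial cells and of some leukocytes. Its values were 5.06, 5.79 and 5.21 in NSCPs and 5.19, 4.98 and 5.45 in SKPs. They straddle the background level, and NSCP replicate 2 stood above the other 5 arrays. The difference of 0.14 (SE 0.21, 95% interval -0.34 to 0.62, limma adjusted p = 0.608) did not pass, and it turned to -0.08 without NSCP replicate 2. Ereg, which encodes epiregulin, had 4.39, 4.58 and 4.89 in NSCPs and 4.50, 4.60 and 4.55 in SKPs. Its difference was 0.07, with a 95% interval from -0.27 to 0.41. Epgn, which encodes epigen, gave 3.73, 3.92 and 3.47 in NSCPs and 3.49, 3.80 and 3.73 in SKPs. Its difference was 0.03, with a 95% interval from -0.32 to 0.39. For Ereg and Epgn every array lay within background, so neither transcript could be told from background in either culture.

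Egf, which encodes the founding member of the family, read 5.92, 6.08 and 6.15 in NSCPs and 6.02, 6.02 and 6.01 in SKPs. All arrays were above background and the groups overlapped. Its difference was 0.03 with a 95% interval of -0.23 to 0.30 (limma adjusted p = 0.829), so a change of 2-fold in either direction lay outside the interval. The same held for Areg, Ereg and Epgn, although a change below background would not be seen.

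**Figure D1:**
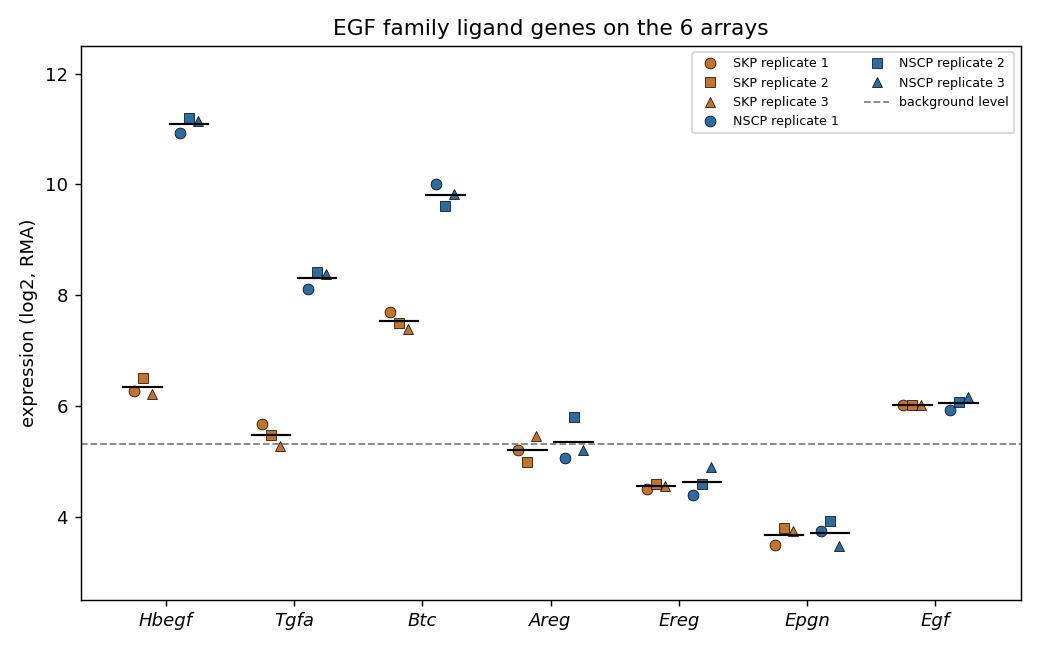
Expression (log2, y axis) of the 7 ligand genes (x axis) in the 3 SKP arrays (orange) and 3 NSCP arrays (blue), with the group mean as a bar and the background level of 5.32 dashed. Hbegf, Tgfa and Btc have separate groups, while Areg, Ereg, Epgn and Egf overlap; heights of different genes come from different probe sets and are not comparable.

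**Figure D2:**
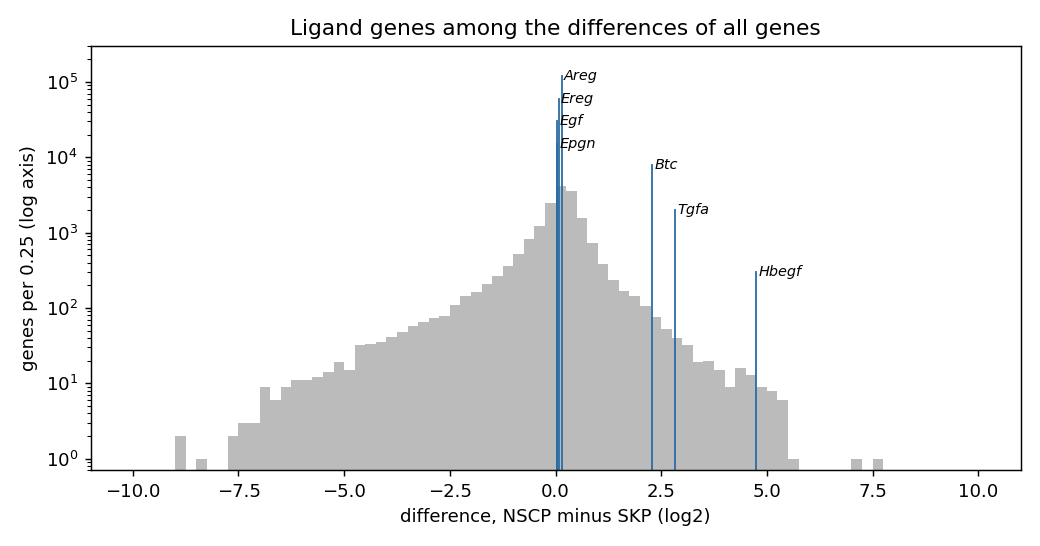
Number of genes (y axis, log scale) by difference of NSCPs minus SKPs (x axis, log2, bins of 0.25) for 18166 genes, with the 7 ligands as vertical lines whose heights carry no value. Hbegf at 4.75 lies in the far upper tail, Tgfa and Btc at 2.83 and 2.29 in the upper tail, and the other 4 near the centre.

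The sequence before the RefSeq start of the 3 higher members is shown with that of Areg, the one whose window held the complete cAMP response element (CRE). RefSeq promoter windows were matched for 6 of the 7 members by symbol (build GRCr8), with Ereg unmatched. The 250 bases upstream of the annotated start are printed 5′ to 3′ on the strand of the gene, with matches to TGACG or TGACGTCA in capitals. They lie at chr18:28390221-28390470 (minus strand) for Hbegf, chr4:120175469-120175718 (plus) for Tgfa, chr14:16992418-16992667 (plus) for Btc and chr14:17265642-17265891 (minus) for Areg.
Hbegf: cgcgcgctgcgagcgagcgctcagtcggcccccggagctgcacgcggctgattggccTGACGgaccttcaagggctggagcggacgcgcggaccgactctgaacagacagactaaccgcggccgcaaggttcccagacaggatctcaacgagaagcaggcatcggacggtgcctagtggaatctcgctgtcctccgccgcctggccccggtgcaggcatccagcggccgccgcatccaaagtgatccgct
Tgfa: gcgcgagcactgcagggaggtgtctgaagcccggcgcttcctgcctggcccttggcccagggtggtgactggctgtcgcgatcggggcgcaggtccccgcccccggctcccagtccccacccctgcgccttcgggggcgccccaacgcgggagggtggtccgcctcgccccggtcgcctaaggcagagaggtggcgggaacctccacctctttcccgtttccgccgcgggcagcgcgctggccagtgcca
Btc: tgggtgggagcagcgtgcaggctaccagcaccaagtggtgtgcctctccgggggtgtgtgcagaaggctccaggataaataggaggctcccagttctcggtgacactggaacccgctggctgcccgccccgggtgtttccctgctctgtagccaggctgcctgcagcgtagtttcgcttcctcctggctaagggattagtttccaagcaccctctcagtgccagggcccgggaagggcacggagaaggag
Areg: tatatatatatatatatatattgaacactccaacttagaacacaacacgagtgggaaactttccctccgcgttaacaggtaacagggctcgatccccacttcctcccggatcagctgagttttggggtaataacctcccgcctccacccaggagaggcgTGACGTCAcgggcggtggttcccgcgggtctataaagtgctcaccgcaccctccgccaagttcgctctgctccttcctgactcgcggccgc
In all, 8 motifs were searched on both strands. The CRE was read as TGACGTCA and its half-site as TGACG, which every CRE match also contains. The AP-1 site was read as TGANTCA. The GC box was searched with the letters GGGCGG. For the TATA box the letters were TATAAA. For SOX factors ACAAAG was used. TEAD factors were given GGAATG. ETS factors were represented by CCGGAAGT. Areg held the CRE from base 91 to base 84 before the start, a match present in 1.59% of 33469 windows of this length. It also held a GC box and a TATA box, found in 30.5% and 12.9% of windows. Hbegf held a CRE half-site at bases 193 to 189, which 18.2% of windows have. In Btc and Tgfa the GC box was the single match, and Epgn held a SOX match (16.3% of windows). Neither AP-1 (6.34%), TEAD (12.1%) nor ETS (3.1%) matched in any of the 6 windows, and Egf had no match to any motif. No motif of this set was found in all 3 higher members. In Hbegf the first ATG begins at base 30 after the annotated start, and where transcription begins in these cells was not measured.

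The receptors were measured on the same arrays, and Egfr, which encodes the receptor that all 7 ligands bind, was 17.1-fold lower in NSCPs. It stood at 5.07, 5.64 and 5.50 in NSCPs, near the background level, against 9.03, 9.93 and 9.54 in SKPs. The difference was -4.10 (SE 0.24, limma adjusted p = 2.55e-06). The group with higher Hbegf, Tgfa and Btc was therefore the group with lower Egfr. Erbb3, which encodes a neuregulin receptor with little kinase activity of its own, was higher in NSCPs by 4.78, at 11.26, 11.44 and 11.35 against 6.75, 6.63 and 6.33. Erbb2, the shared partner that binds no ligand directly, was higher by 1.06, at 8.34 ± 0.22 against 7.28 ± 0.21 (SD, n = 3 per group). Erbb4, a receptor for Hbegf, Btc, Ereg and neuregulins, was within background in both groups, with NSCP and SKP means of 4.43 ± 0.12 and 4.80 ± 0.41 (SD, n = 3 per group), and did not pass (adjusted p = 0.165 by limma); it passed only without SKP replicate 2, with an adjusted p of 0.0489.

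Of the neuregulin genes, whose protein NRG1 was supplied to the NSCPs, Nrg1 fell by 0.98 (6.62 ± 0.18 against 7.60 ± 0.34, SD, n = 3 per group). Nrg2, Nrg3 and Nrg4 did not pass, and their means were within or at background in both groups. Nrg2 had NSCP and SKP means of 5.32 ± 0.17 and 5.30 ± 0.23 (SD, n = 3 per group). Nrg3 had a difference of 0.36 and an adjusted p of 0.0752 in limma, and its call changed without NSCP replicate 2, where the adjusted p was 0.0158. Nrg3 also passed with each array centred on its median (limma adjusted p = 0.0359) and with array weights (0.00317). Nrg4 had a difference of 0.20. Thus 0 of the 4 neuregulins were called higher by limma, and 1, Nrg3, was higher at an unadjusted p under 0.05. The share called in either direction was 25%, against 43.7% of all genes (25.2% higher and 18.6% lower). With 4 genes, a count of 0 higher is near the share over all genes. The difference between the 2 families was not tested.

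**Figure D3:**
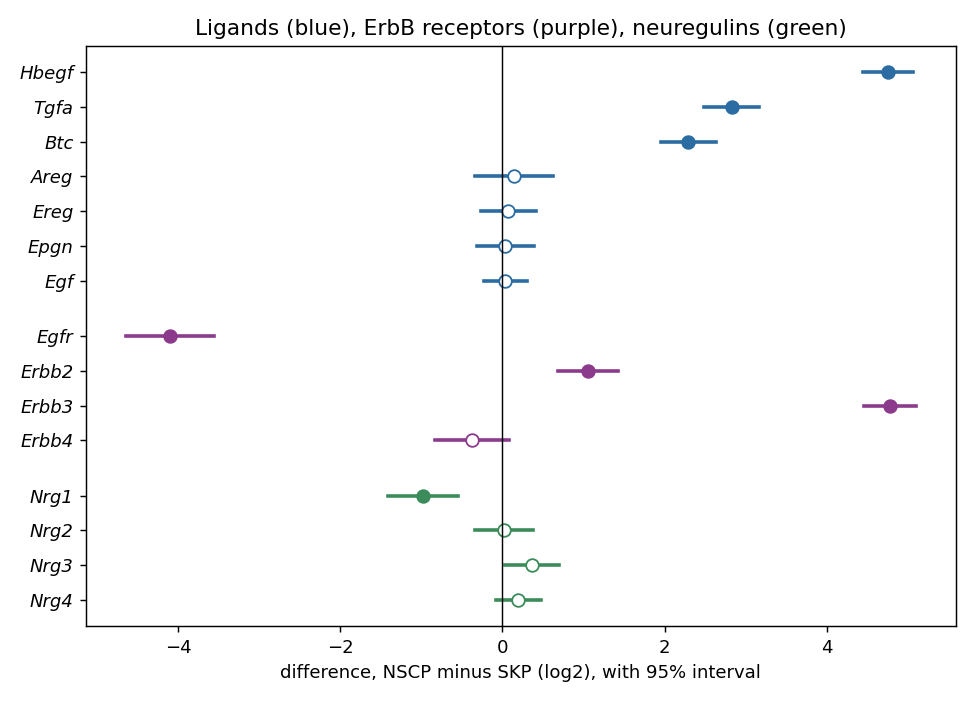
Difference of NSCPs minus SKPs (log2, x axis) with its 95% interval for the 7 ligands, 4 ErbB receptors and 4 neuregulins; filled points passed at an adjusted p under 0.05. Hbegf and Erbb3 lie at 4.75 and 4.78, and Egfr lies on the other side at -4.10.

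Genes on the list for ligand release, which holds proteases, their regulators and cargo receptors, went both ways. Of 20 measured members (22 listed) 7 were higher and 8 lower in NSCPs, with a median difference of -0.16. Thus 75% were called, against 43.7% of all genes (25.2% higher and 18.6% lower). Mmp3, a matrix metalloproteinase gene, differed by -4.75 with an NSCP mean within background. Adam12, whose protease can cut Hbegf, differed by -3.58, at 7.31, 7.65 and 7.63 in NSCPs against 10.75, 11.40 and 11.17 in SKPs. Bace2 (-1.77) and Adam15 (-1.25) were lower as well. Higher members were Frmd8, which encodes a stabiliser of the iRhom and ADAM17 complex (1.19), and Adam19 (1.03). Adam17, which encodes the main sheddase of Hbegf, Tgfa, Areg and Ereg, was named after its values were seen. It stood at 11.40, 11.02 and 11.35 in NSCPs and 10.93, 10.64 and 10.92 in SKPs, so the sheddase transcript was well above background in both cultures. The difference of 0.43 just passed (adjusted p = 0.0465 by limma). Adam10, which encodes the main sheddase of Egf and Btc, was not analysed here. The Adam17 call was lost without SKP replicate 1, 2 or 3 or NSCP replicate 1 or 3, with adjusted p from 0.0624 to 0.134, and kept without NSCP replicate 2. Renewed quantile normalization (limma adjusted p = 0.0709) and adjustment over all probe sets (0.0836) also removed the call. It held under 8 of 16 alternative settings.

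Genes of proteins that bind Hbegf or its membrane form, or its tail inside the cell, also split by gene. Among 13 measured members (14 listed) 6 were higher and 3 lower, with a median of 0.26. The share called was 69.2%, against 43.7% of all genes (25.2% higher and 18.6% lower). The syndecans, which carry the heparan sulfate that Hbegf binds, moved in opposite directions. Sdc3 had NSCP and SKP means of 11.60 ± 0.19 and 9.29 ± 0.22, and Sdc4 of 11.53 ± 0.09 and 10.00 ± 0.27 (SD, n = 3 per group), with differences of 2.31 and 1.53. Sdc2 (-3.96) and Sdc1 (-2.83) were lower. Cd9, which encodes a tetraspanin that associates with the membrane form of Hbegf, was higher by 1.04, at 12.30, 12.26 and 12.31 against 11.66, 10.70 and 11.39. Zbtb16, which encodes a transcriptional repressor that the cut tail of Hbegf can bind, was lower (-1.24), with its NSCP mean within background.

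Among genes that restrain EGF receptor signals or move the receptor within the cell, more were called lower than higher in NSCPs. Of 28 measured members (29 listed) 12 were lower and 4 higher, against 18.6% lower and 25.2% higher over all genes, and the median difference was -0.32. Cblb, a ubiquitin ligase gene, was 10.6-fold lower, at 7.09, 6.78 and 6.83 in NSCPs against 10.32, 10.32 and 10.28 in SKPs. Errfi1, which encodes the receptor inhibitor MIG6, was 7.51-fold lower, at 8.06, 8.32 and 8.08 against 11.02, 11.17 and 10.99. The phosphatase gene Dusp5 (-2.78), the feedback inhibitor gene Spry1 (-2.00), the phosphatase gene Ptprk (-1.62) and Lrig1 (-1.54), which encodes an inhibitor of ErbB receptors, were lower too. The 4 higher members (a choice made with their values in view) were Spry2, Socs3, Socs5 and Cblc, with differences of at most 0.56. Their calls depended on single arrays: 0 genes were called higher without NSCP replicate 1, 1 without SKP replicate 3, and 2 without SKP replicate 1, SKP replicate 2 or NSCP replicate 3, against 3 without NSCP replicate 2.

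Signal adaptors were called equally often in both directions, with 7 higher and 7 lower among 22 measured members (26 listed) and a median of 0.04. The share called was 63.6%, against 43.7% of all genes. Vav3 (-3.07, NSCP mean within background), the phospholipase gene Plcg1 (-2.16), Shc1 (-1.62), which encodes an adaptor of activated ErbB receptors, and Nck1 (-0.91) were lower. Grb14 (1.37, SKP mean within background) and the kinase gene Src (1.07) were higher. Transcripts that EGF receptor and MAPK signals induce had 5 higher and 8 lower among 21 measured members (24 listed), with a median of -0.10. Of this list 61.9% were called, against 43.7% of all genes (25.2% higher and 18.6% lower). Zfp36 (-2.74), Egr1 (-2.41), Egr2 (-1.91), Dusp1 (-1.89) and Plaur (-1.74) were lower, while Atf3 was higher (1.80). The other 4 higher genes (also chosen with values in view) were Phlda1 (1.62), Fosl1 (0.93), Ccnd1 (0.81) and Maff (0.58). Egr1 varied among the NSCP arrays, from 8.02 in replicate 3 to 9.40 in replicate 2.

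**Figure D4:**
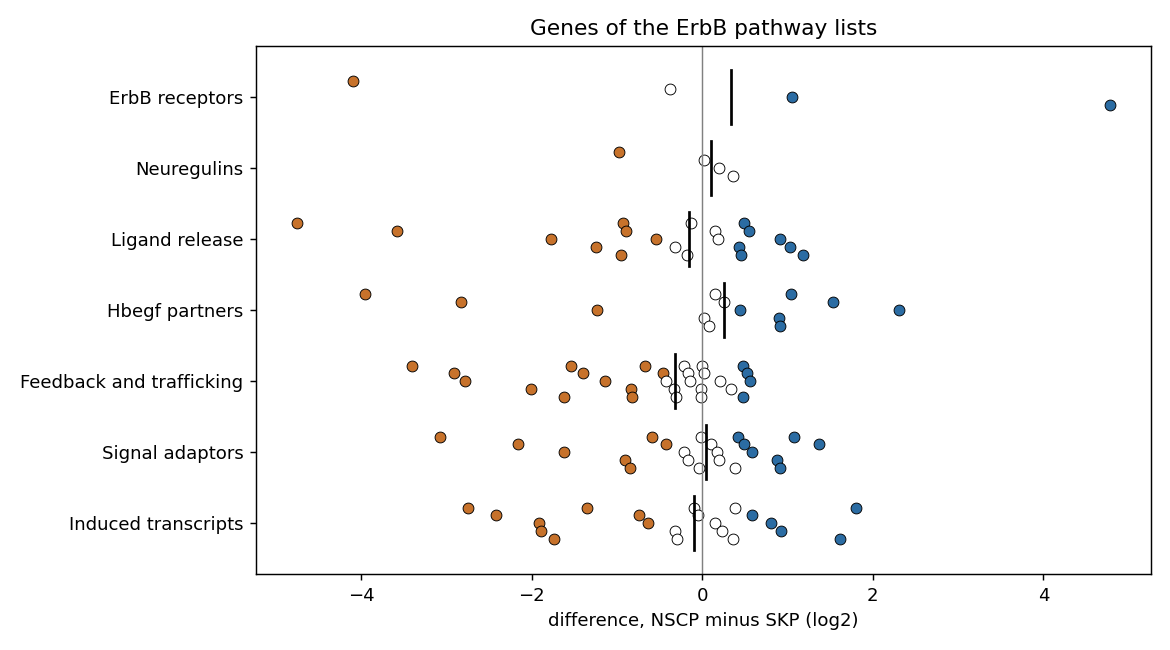
Difference of NSCPs minus SKPs (log2, x axis) for each measured gene of the 7 pathway lists (rows), with the list median as a black bar; blue points were higher, orange points lower and white points did not pass. Most feedback genes that passed lie to the left of 0, and release genes and Hbegf partners lie on both sides.

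The labels were compared with markers of the cell types that the cultures could hold. All 8 measured Schwann cell markers (10 listed) were called higher in NSCPs, against 25.2% of all genes. L1cam, Erbb3, Cdh19 and S100b were each higher by more than 4. The mean of the 8 markers was between 10.39 and 10.53 in NSCP arrays and between 6.83 and 7.08 in SKP arrays, above background in both. All 9 dermal fibroblast markers were called lower in NSCPs, against 18.6% of all genes. NSCP means of Lum, Dcn and Prrx1 were within background, and the difference for Pdgfra was -6.88. By group mean 5 of the 9 were still above background in NSCPs. Among these, listed after their values were seen, Postn, Col1a1 and Col3a1 had high NSCP means of 12.30, 11.80 and 10.69. Their differences were -0.83, -0.95 and -1.90. In bulk RNA, fewer cells of a type and less RNA per cell cannot be told apart. Correlations across genes were 0.984 to 0.993 within groups and 0.872 to 0.888 between groups.

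Macrophages and other leukocytes can make Hbegf and Areg, so their markers stand beside the ligands. Of 15 markers 14 were called lower in NSCPs (93.3%), against 18.6% of all genes. Among them were Lyz2 (-8.80), Cybb (-7.29), Fcer1g (-6.52) and Cd53 (-6.32), all with NSCP means within background. The mean level of the 15 markers was 10.21, 9.20 and 9.48 in SKP replicates 1 to 3 and between 5.00 and 5.18 in NSCPs. On the NSCP arrays 5 to 7 of the 15 markers lay above background, and by group mean Laptm5 (6.46), Cd14 (5.76), Csf1r (5.72) and Cd68 (5.50) did, listed after their values were seen. Among the SKP arrays, replicate 1 had the highest leukocyte mean and replicate 2 the lowest. Tgfa and Btc were highest in replicate 1, at 5.68 and 7.70, Hbegf was highest in replicate 2, at 6.51, and Areg was lowest in replicate 2, at 4.98. The part of leukocyte RNA in the SKP values was not tested.

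Keratinocytes and other epithelial cells make ligands of this family, Areg, Ereg, Epgn, Btc and Tgfa among them, and 14 of 19 listed markers were measured. Their mean lay between 5.15 and 5.51 on all 6 arrays, near background. Cdh1 (1.08) and Epcam (0.81) were higher in NSCPs, and Perp (-1.06), Dsg3 (-1.07) and Dsc3 (-0.80, outside the rule for named genes) were lower, while Epcam was within background in both groups. Cdh1 had NSCP and SKP means of 7.55 ± 0.28 and 6.47 ± 0.76 (SD, n = 3 per group), and it lost its call without NSCP replicate 2 or NSCP replicate 3 (adjusted p = 0.114 and 0.0822). Dsg3 lost its call without SKP replicate 1 or 3 or NSCP replicate 1 or 3, with adjusted p from 0.06 to 0.0897. On this list 5 of 14 genes were called (35.7%), against 43.7% of all genes, and 3 were called without NSCP replicate 3. Krt14 and Krt1, defining keratins of the epidermis and also named outside that rule, had means of 5.48 and 4.98 in NSCPs and 5.32 and 4.56 in SKPs and did not pass. Mast cell markers lay between 4.06 and 4.50 on average, and the melanocyte and the endothelial and mural markers between 5.16 and 5.88. Of these, 2 of 8, 4 of 6 and 2 of 7 measured genes were called (25%, 66.7% and 28.6%), against 43.7% of all genes. The mast cell genes called were Tpsab1 (0.34) and, outside the rule, Hdc (0.34), both within background, and with any 1 array left out 0 or 1 mast cell marker was called. Brighter mast cell markers were Kit, with NSCP and SKP means of 6.43 and 5.92, and Tpsb2, with 6.14 and 5.85, both above background in both groups and not called (limma adjusted p = 0.0885 and 0.0933). The melanocyte genes called were Mitf (-2.43), Tyrp1 (1.40), Mlana (-1.22) and Dct (1.11). SKP means of Tyrp1 and Dct and the NSCP mean of Mlana were within background. The endothelial and mural genes called were Rgs5 (-0.91) and, outside the rule, Emcn (0.47), which was within background in both groups. Egfl7 (0.13) and Kcnj8 (-0.13), the other bright members of that list, did not pass.

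**Figure D5:**
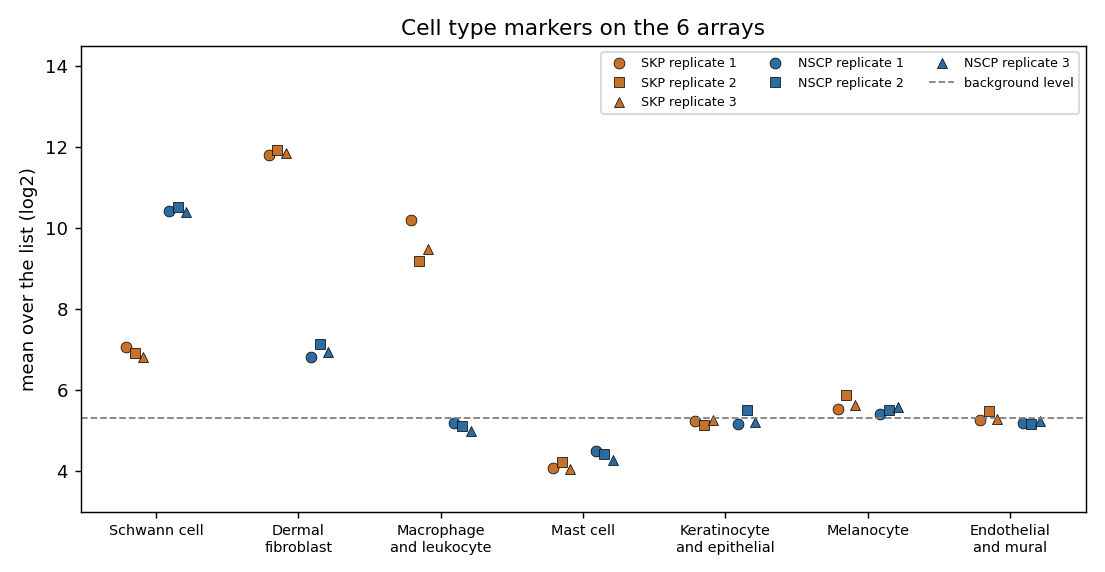
Mean expression (log2, y axis) over each marker list (x axis) in the 3 SKP arrays (orange) and 3 NSCP arrays (blue), with the background level of 5.32 dashed. Schwann cell markers are above 10 in NSCPs, leukocyte markers are between 9.20 and 10.21 in SKPs, and keratinocyte and mast cell lists are near or under background in both groups.

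Genes whose values followed a member most closely were found by the Euclidean distance between profiles over the 6 arrays, each centred on its own mean. The nearest to Hbegf was Gpr37l1, which encodes a glial receptor (distance 0.19; difference 4.71), followed by Erbb3 (0.31) and the adhesion gene Cadm4 (0.31). Tgfa lay nearest to Fa2h, which encodes a hydroxylase of myelin lipids (0.26; difference 2.76), Ildr2 (0.26) and Chst3 (0.28). For Btc the nearest were Lmln (0.17), Snx16 (0.19) and Lrr1 (0.27), with differences of 2.36, 2.20 and 2.25. Areg and Egf had small group differences. The genes nearest to Areg were Mcpt4 (0.16), Minar2 (0.18) and Mir151b (0.20), and those nearest to Egf were Agbl2 (0.03), Cacng6 (0.07) and Shbg (0.08). Of these, Mcpt4, Minar2, Agbl2 and Cacng6 were within background in both groups, while Mir151b and Shbg were just above it. With 2 groups of 3 arrays, such distances follow mainly the size of the group difference and are given as a description.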

How the data were processed

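Expression arrays of 6 cultures were used, 3 SKP and 3 NSCP isolates, with 1 array each. The deposited values are log2 expression per probe set, made by the authors with oligo and RMA per the submitters' processing notes, which give no versions. Quantile normalization within RMA hides a shift of all genes. Of 36685 probe sets 18511 had 1 gene symbol, 575 several and 17599 none here. The probe set with the highest mean was kept per gene. No genome build of the array is given in the sources used here, and RefSeq (GRCr8) served for names, matched for 7 of 7 members, gene order and promoter windows.

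The fit used limma 3.58.1 in R 4.3.3 (lmFit, eBayes, 2-sided) on all 18166 genes, with no filter and Benjamini-Hochberg adjustment over all genes. The fitting code was also run on simulated data with far fewer changed genes than were called here. That run checks the code and does not measure the error of these calls. Figures used matplotlib 3.10.9 under Python 3.11.15. Detection calls were not used. The number of arrays limits the precision.

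Members and the 14 gene lists were chosen with earlier results of these data known. Text names all members, ErbB receptors and neuregulins, the up to 6 called genes with the largest differences per other pathway list, up to 4 per marker list (where under 3 were called, the 3 brightest), and the 3 nearest profiles per member above background. Genes named outside this rule are stated as such where they appear or are neighbours by position. For each gene up to 16 alternatives were tried. The main fit did not pair samples by replicate number. Deviations of same-numbered arrays correlated at 0.04, 0.05 and 0.03, and those of other pairs at -0.038 to 0.004. Whether equal numbers mark paired isolates is not settled by these values.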

Additional observations from a re-analysis of the deposited data

How the results depend on the processing

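Hbegf, Tgfa and Btc were called higher under all 16 alternatives, with differences of 4.70 to 4.84, 2.72 to 2.97 and 2.19 to 2.40, and the count of called ligands was 3 throughout. Areg, Ereg, Epgn and Egf were called under none, and their signs were not stable. With 1 array left out, differences ran from -0.078 to 0.29 for Areg, -0.065 to 0.19 for Ereg, -0.017 to 0.098 for Egf and -0.074 to 0.15 for Epgn. With array weights Areg was at -0.11 and Epgn at -0.14, and with renewed quantile normalization Epgn was at -0.053; the cause was not tested. Left-out arrays also turned Nrg2 (-0.11 to 0.12), Egfl7 (-0.008 to 0.23) and Kcnj8 (-0.21 to 0.0042), which were not called. At an adjusted p under 0.01, 2886 genes were higher, against 4569. Neuregulins called numbered 1, but 2 with each array centred on its median, 3 with array weights and 1 to 2 with an array left out. Mast cell markers called ranged from 0 to 4 and keratinocyte markers from 2 to 8. The background level was 4.86 at the 90th percentile of the receptor genes and 5.03 as the lower quartile of all genes. Some statements on background depend on this choice. The SKP means of Areg (5.21) and Grb14 (5.18) and the NSCP means of Cd53 (5.29), Fcer1g (5.21) and Emcn (5.06) lay above both levels. At 4.86, NSCP means of Mmp3 (4.92) and Prrx1 (4.98) and the SKP mean of Tyrp1 (4.88) did too. The group means of Ereg, Epgn and Erbb4 lay under both levels. With the replicate number as a block 7681 genes were called against 7945 and no call on a member changed. Every array correlated best with its own number, at most 0.05, which is a hint from the data and not from the design. Filters on dim genes removed up to 4 ligands from the test.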

Other observations

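Btc, Areg, Ereg and Epgn lie next to each other on rat chromosome 14 in the RefSeq gene order (GRCr8), while Hbegf, Tgfa and Egf are on chromosomes 18, 4 and 2. Of the 4 neighbours, Btc at the end of the row was higher in NSCPs and the other 3 did not pass. The genes on either side, chosen for position after the ligand values were known, were read as well. Parm1, next to Btc, was higher in NSCPs by 1.96 (SE 0.27, limma adjusted p = 4.38e-04), at 9.74, 10.02 and 10.08 against 8.25, 7.31 and 8.40. Mthfd2l, which encodes a mitochondrial folate enzyme and lies next to Epgn, was higher by 0.90 (limma adjusted p = 3.76e-04), and the chemokine gene Cxcl2 beyond it was lower by a difference of -1.35, with SKP values of 7.70, 6.23 and 6.88. Further out, Rchy1 beyond Parm1 (0.15, limma adjusted p = 0.42) and Cxcl1 (-0.28, limma adjusted p = 0.121) did not pass, nor did Cxcl3, which was within background in both groups. Thap6, beyond Rchy1, was higher by 0.55 (limma adjusted p = 0.0196).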
